A study of Homo sapiens with 20 samples.

Results

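The mitosis and spindle genes described here are 40 genes whose products take a cell through mitosis, from the cyclins and kinases that start it to the proteins that part the chromosomes and divide the cell. They were taken by symbol from a list of such genes. All 40 were measured among the 19775 genes that the probe sets of the array name, and all 40 were among the 13787 genes tested. The arrays came from 5 established lines of T cell acute lymphoblastic leukaemia (T-ALL), namely T-ALL1 and KOPT-K, and the lines CEM, HPB-ALL and DND41. In each line, 2 arrays followed 16 h with a control peptide and 2 followed 16 h with the NBD peptide, which makes 10 groups and 20 arrays. NBD stands for the NEMO-binding domain, the stretch of the IkB kinase through which its regulatory subunit (NEMO, or IKKgamma) is bound, and the peptide keeps the subunits apart and so blocks canonical NF-kB signalling. Every group received a peptide, and no array of cells without peptide was analysed here. Each line stands for itself and not for a patient group. The labels give the dose as 100 µM in some fields and 100 mM in others, so nothing here rests on it. Nor do the labels tell if the 2 arrays of each group stand for 2 cultures or for 1 culture measured again, so a p-value here reflects array-to-array spread that may be technical.

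Cells enter mitosis when CDK1 bound to a B-type cyclin is switched on by CDC25 phosphatases and kept on by Polo and Aurora kinases. Kinetochores then attach chromosomes to spindle microtubules, the spindle checkpoint holds back the anaphase-promoting complex (APC/C) until all are attached, and motor proteins and scaffolds build the spindle and the cleavage furrow. Transcripts of most of these genes are highest in G2 and mitosis. In a bulk sample their level thus follows both the share of cells in those phases and the transcript per cell. These cannot be told apart here.

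Many promoters of such genes carry a CCAAT box, bound by NF-Y, and a CHR element (cell cycle genes homology region), bound by the MuvB core of the DREAM and B-MYB complexes. RefSeq promoter windows of GRCh38.p14, which run from 250 bases before to 50 after a start site, were found for 33 of the 40 genes. The letters TTTGAA of the CHR element, on either strand, stood in a window of 24 of these 33 genes, or 72.7%, against 18.2% of all 27305 genes with a window. The letters CCAAT, on either strand, stood in 27 (81.8%, against 39.7%), and both stood in 1 window of 20 genes (60.6%, against 7.26%). These matches describe letters and are not shown to be bound sites. The windows of 4 genes on which the tests below turned are printed, with CCAAT or its reverse complement ATTGG and TTTGAA in capitals. The windows of KIF20A (chr5:138178862-138179161, plus strand) and CCNB1 (chr5:69166900-69167199, plus strand) held a pair of CCAAT boxes each and no TTTGAA. Those of PLK1 (chr16:23678639-23678938, plus strand) and CDC25C (chr5:138331755-138332054, minus strand, 1 of its 4 windows) held both motifs. Their CHR letters stood 29 and 30 bases before the start site. Another CDC25C window (chr5:138331828-138332127) held both motifs too, with TTTGAA 43 bases after the start site. Its windows at chr5:138338306-138338605 and chr5:138338292-138338591 held neither.
KIF20A: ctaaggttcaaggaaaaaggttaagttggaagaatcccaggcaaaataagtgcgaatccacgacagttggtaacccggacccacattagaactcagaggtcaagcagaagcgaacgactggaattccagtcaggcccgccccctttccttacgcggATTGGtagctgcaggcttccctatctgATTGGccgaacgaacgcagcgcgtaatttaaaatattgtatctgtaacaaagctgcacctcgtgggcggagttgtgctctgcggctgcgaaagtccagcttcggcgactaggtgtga
CCNB1: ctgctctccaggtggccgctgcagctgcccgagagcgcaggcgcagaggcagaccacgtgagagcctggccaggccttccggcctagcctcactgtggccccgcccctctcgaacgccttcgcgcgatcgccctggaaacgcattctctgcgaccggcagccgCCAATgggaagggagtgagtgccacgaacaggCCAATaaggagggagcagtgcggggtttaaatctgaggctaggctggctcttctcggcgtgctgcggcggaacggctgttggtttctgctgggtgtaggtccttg
PLK1: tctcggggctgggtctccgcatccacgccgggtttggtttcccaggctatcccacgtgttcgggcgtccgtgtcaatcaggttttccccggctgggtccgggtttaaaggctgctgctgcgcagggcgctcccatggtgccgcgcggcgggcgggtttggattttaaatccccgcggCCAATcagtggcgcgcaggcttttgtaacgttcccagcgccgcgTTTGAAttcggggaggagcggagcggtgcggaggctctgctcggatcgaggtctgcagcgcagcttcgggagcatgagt
CDC25C: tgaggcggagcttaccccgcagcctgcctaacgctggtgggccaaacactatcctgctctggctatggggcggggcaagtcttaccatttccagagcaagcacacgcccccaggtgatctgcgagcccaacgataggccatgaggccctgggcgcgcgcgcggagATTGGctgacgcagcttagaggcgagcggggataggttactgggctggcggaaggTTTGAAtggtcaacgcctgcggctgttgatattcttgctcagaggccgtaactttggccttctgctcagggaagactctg
A window without TTTGAA says only that these letters were not there. In CEM the median NBD effect was 0.13 on the log2 scale for the 24 genes with the letters and 0.15 for the 9 without, and in KOPT-K it was 0.13 and 0.07. In that order it was -0.08 and -0.11 in DND41, -0.08 and -0.14 in HPB-ALL and -0.03 and -0.09 in T-ALL1, and no difference between the 2 sets was tested.

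The arrays of a group correlated at r = 0.992 in T-ALL1 controls and at 0.996 to 0.998 in the other groups. Over all genes the replicate SD was 0.23 in T-ALL1 controls and 0.11 to 0.15 in the others. The fit takes 1 spread per gene over all groups, so the T-ALL1 controls enter the SE of every line. By the form of their values the arrays seem to have been normalized in 2 runs, T-ALL1 with KOPT-K and CEM with DND41 and HPB-ALL, so each NBD effect lies within a run, and levels were compared between lines of a run only. An array has no read depth, and the number of arrays limits the precision. T lineage markers were present in every line: 13 of 14 were measured, and at least 12 of the 13 reached the filter value (log2 5.0) in every group. B cell markers summed to a log2 level of 11.6 in DND41 with control peptide and 10.4 to 10.5 with NBD, with CD79A at up to 11.5, and to 7.55 to 8.65 in the other lines, with 3 to 4 of the 6 measured at or above the filter value in every group. CD22 (6.11 to 7.28) and CD79B (5.10 to 6.57) were above it on all 20 arrays, and MS4A1 (at most 4.31) and BLNK (at most 3.56) below it. T lineage markers had median NBD effects of -0.32 in DND41 to -0.07 in KOPT-K. Of the 13, 4 were lower in DND41, 2 each in HPB-ALL and T-ALL1, 1 in KOPT-K and 0 in CEM (limma adjusted p under 0.05). Of all genes, 2.47%, 0.783%, 3.45%, 1.28% and 1.13% were called in these lines in that order, in either direction. Myeloid markers summed to 7.07 to 7.61, with 1 to 2 of the 8 measured at or above the filter value in each group. ITGAM was above it on all 20 arrays (5.03 to 5.86), and LYZ (at most 3.55) and MPO lay below it on all 20. Fibroblast and epithelial markers summed to 7.97 to 8.59, with 1 to 3 of 8 at or above it, COL1A1 at 6.78 to 7.67 and CDH1 at most 3.76. RNA integrity was read from actin, as the log2 level at the transcript's 3' end minus that at its 5' end, which was 2.61 ± 0.78 (SD, n = 2) in T-ALL1 controls and 1.03 ± 0.05 with NBD. It was 1.45 and 1.76 in CEM, 1.42 and 1.27 in DND41, 1.37 and 1.30 in HPB-ALL and 0.94 and 0.85 in KOPT-K, with control and NBD in that order. T-ALL1 control 1 stood at 3.16, the highest of the 20 arrays, and control 2 at 2.05. The same difference for GAPDH was 0.77 and 0.21 in these arrays. A fit without T-ALL1 control 2 has control 1 as its only control array of that line. The part of these differences in the results was not tested, except where a value is given.

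The main question was how transcripts of these 40 genes moved with the NBD peptide in each line, and whether the lines differed. As a group they lay higher with NBD in CEM and KOPT-K and lower in DND41 and HPB-ALL, by small amounts that limma called for few single genes. The median NBD effect over the 40 genes was 0.14 in CEM and 0.11 in KOPT-K, and -0.08 in DND41, -0.09 in HPB-ALL and -0.04 in T-ALL1, on the log2 scale. The medians over all 13787 genes were -0.02 in DND41 and -0.01 in each of the other lines. All 40 genes were above 0 in CEM, at 0.01 (CENPE) to 0.25 (NUF2), and 35 in KOPT-K, at -0.21 (CDC25B) to 0.63 (MKI67). Below 0 were 33 in DND41 (-0.29 to 0.13), 37 in HPB-ALL (-0.26 to 0.06) and 28 in T-ALL1 (-0.24 to 0.29). The average over the 5 lines had a median of 0.01, with 24 genes above 0 and 16 below.

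**Figure D1:**
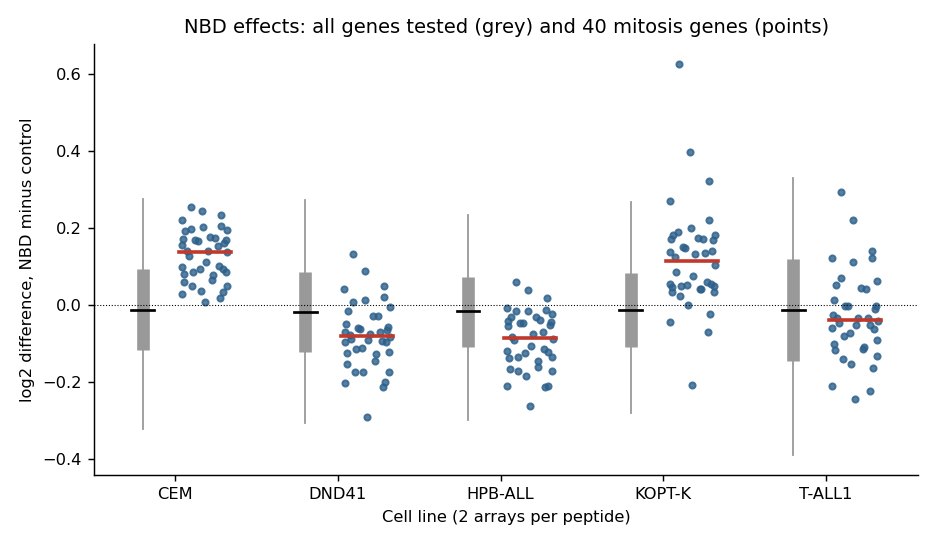
NBD effect (log2 difference, NBD minus control, vertical axis) in the 5 lines: points are the 40 mitosis and spindle genes with their median as a red line, and the grey box, whisker and black line are the middle 50%, the 5th to 95th percentile and the median of all 13787 genes tested. The points of CEM all lie above 0 and those of DND41 and HPB-ALL mostly below.

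The single arrays showed for how many of the genes the shift exceeded the replicate spread. The peptides overlapped for 8 of the 40 genes in CEM, 20 in KOPT-K, 14 in DND41, 17 in HPB-ALL and 25 in T-ALL1. All 40 genes were read on the same arrays, and the 4 pairs of a line share arrays, so neither genes nor pairs are replicates. In CEM both NBD arrays lay above both control arrays for 32 of the 40 genes and below for 0, where 21% and 28.2% of all genes did so. KOPT-K had 19 above and 1 below (BUB3), against 18.9% and 23.6% of all genes. DND41 had 3 above (CDC25B, TOP2A and TTK) and 23 below, against 21.6% and 27.8%, and HPB-ALL had 1 above (BIRC5) and 22 below, against 20.7% and 29.1%. T-ALL1 had 4 above and 11 below, against 18.7% and 24%, and so its 11 genes (27.5% of the 40) stood close to the share of all genes. The median over the 40 genes kept its sign in each of the 4 pairs of a NBD and a control array of a line, at 0.11 to 0.15 in CEM, 0.09 to 0.14 in KOPT-K, -0.10 to -0.05 in DND41, -0.11 to -0.08 in HPB-ALL and -0.04 to -0.03 in T-ALL1. The median over all genes in the same pairs was -0.03 to -0.0035 in CEM, -0.04 to 0.01 in KOPT-K, -0.05 to 0.01 in DND41 and -0.03 to -0.0056 in HPB-ALL. In T-ALL1 it was -0.04 in both pairs with control 1, where the 40 genes stood at -0.04 too, and between -0.00066 and 0.00034 with control 2.

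Many of the 40 genes had both shifts. Of them, 27 were above 0 in both CEM and KOPT-K and below 0 in both DND41 and HPB-ALL, or 67.5%, against 5.1% of all genes tested, and 0 had the opposite pattern, against 4.11%. In T-ALL1, 20 of the 27 were also below 0, though the median of that line turned to 0.02 with probe sets averaged. The lines were combined in this way because their medians had these signs, so the count describes the lines and tests nothing. It was 25 with quantile normalization and 20 where the probe sets of a gene were averaged, and 24 to 29 when single arrays were left out, against 4.58% to 5.74% of all genes in those fits. Outside the pattern were CCNA2, CDK1, CDC25B, BIRC5, BUB1B, BUB3, TTK, CENPE, CENPF, KIF4A, HMMR, ESPL1 and TOP2A. The highest effect of a gene was in CEM for 25 and in KOPT-K for 12, and the lowest was in HPB-ALL for 17, in DND41 for 15 and in T-ALL1 for 8.

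**Figure D2:**
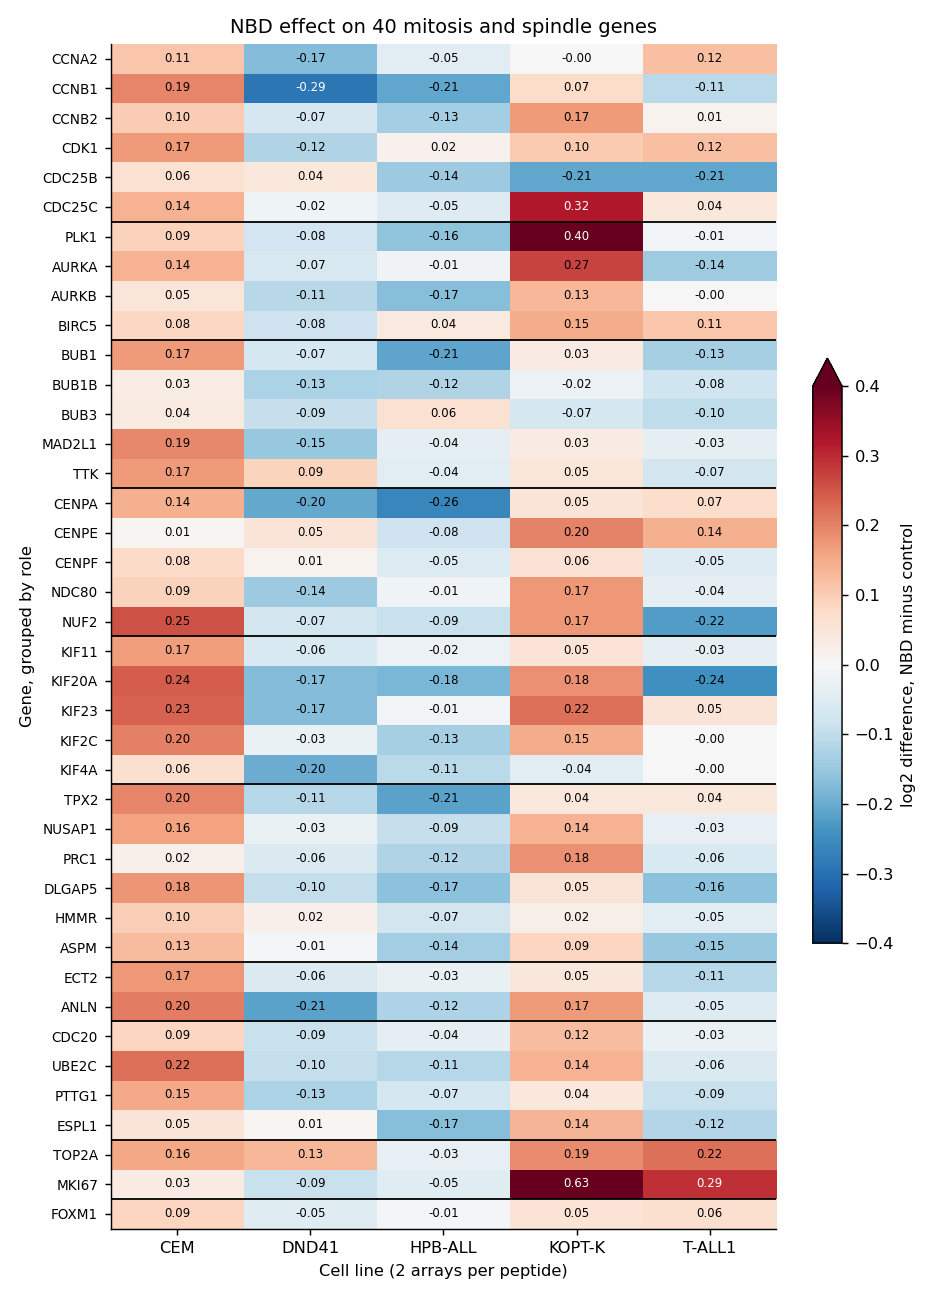
NBD effect of each of the 40 genes (rows, in blocks by role) in the 5 lines (columns) as a log2 difference, NBD minus control, printed in each cell and coloured from -0.4 to 0.4 (MKI67 in KOPT-K, at 0.63, is beyond the scale). CEM is above 0 throughout, and PLK1, CDC25C and MKI67 stand out in KOPT-K.

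Gene by gene, limma called few of these shifts (moderated test on 10 group means, adjusted over all 13787 genes, threshold 0.05). In CEM 0 of the 40 genes passed, where 1.13% of all genes did, with 13 at an unadjusted p under 0.05, all higher. In DND41 0 passed (2.47% of all genes), with 3 at an unadjusted p under 0.05, all lower, and in HPB-ALL 0 passed (0.783%), with 8, all lower. In KOPT-K 1 passed, CDC25C, where 1.28% of all genes did, with 10 at an unadjusted p under 0.05, all higher. In T-ALL1 0 passed (3.45%), with 4, all lower, and on average over the lines 0 passed (8.38%), with 2, both higher. The unadjusted shares over all genes were 13.4% in CEM, 14.7% in DND41, 10.4% in HPB-ALL, 11.8% in KOPT-K, 20.8% in T-ALL1 and 21.8% on average. With a trended and robust prior in limma the calls were KIF20A and UBE2C in CEM, CCNB1 in DND41, BUB1 in HPB-ALL, AURKA, CDC25C and PLK1 in KOPT-K, KIF20A in T-ALL1 and TOP2A on average. Left out singly, T-ALL1 control 1 or 2 gave calls for KIF20A and NUF2 in CEM, CCNB1 in DND41 and AURKA, CDC25C and PLK1 in KOPT-K, and control 2 also for AURKA, CENPA, KIF20A, NUF2 and TOP2A in T-ALL1. On simulated data with a change in 1 line, this test recovered 48% of genes changed by 0.5 and 98% of those changed by 1 (log2). Nearly all effects here were smaller than 0.5. The changed genes were drawn from all 13787, so these shares are not the recovery for the 40 genes, whose spread differed. Their replicate SD was 0.03 in CEM controls, against 0.15 over all genes, and 0.16 against 0.15 in KOPT-K controls.

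Whether the effect differed between the 5 lines was asked with a moderated F-test, which 1 of the 40 genes passed, KIF20A, against 1.83% of all genes, with 13 at an unadjusted p under 0.05 (16.8% of all genes). KIF20A encodes a kinesin of the central spindle that is needed for cytokinesis. Its log2 levels were 11.02 and 11.01 with control and 11.24 and 11.28 with NBD in CEM, and 9.68 and 9.74 with control and 9.90 and 9.88 with NBD in KOPT-K. In DND41 they were 10.24 and 10.23 with control and 10.11 and 10.003 with NBD, in HPB-ALL 10.65 and 10.62 and then 10.44 and 10.47, and in T-ALL1 10.63 and 10.51 and then 10.32 and 10.32. Control and NBD arrays were apart in each of the 5 lines: NBD was the higher in CEM and KOPT-K and the lower in the others. The effects were 0.24 ± 0.06 (SE, 2 arrays per group) in CEM, 0.18 in KOPT-K, -0.17 in DND41, -0.18 in HPB-ALL and -0.24 in T-ALL1, each with an SE of 0.06, and the F-test gave F = 13.1 (limma adjusted p = 0.0201). None of the 5 effects passed on its own (limma adjusted p = 0.0988, 0.24, 0.203, 0.26 and 0.0517 in that order), though that in T-ALL1 did without T-ALL1 control 2, either KOPT-K control array or either DND41 NBD array. The call was lost without T-ALL1 NBD 1 (limma adjusted p = 0.0531), CEM control 2 (0.0576), CEM NBD 2 (0.0534) or DND41 control 1 (0.052), and in the run of T-ALL1 and KOPT-K alone (0.408). It held for the run of CEM, DND41 and HPB-ALL alone, with quantile normalization and without T-ALL1. The F-test also passed for 7 other genes without T-ALL1 control 2, namely ANLN, AURKA, BUB1, CCNB1, CENPA, NUF2 and UBE2C. KIF20A has a single probe set on the array.

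Of the 10 pairs of lines, 3 had a gene whose effect differed. In CEM minus DND41, 2 of the 40 genes passed, against 0.986% of all genes, and 16 had an unadjusted p under 0.05, all higher in CEM (14.3% of all genes). KIF20A differed by 0.42 ± 0.09 and CCNB1 by 0.48 ± 0.10 (limma adjusted p = 0.0487 each). In CEM minus T-ALL1, KIF20A alone passed (0.49 ± 0.09, limma adjusted p = 0.0299), against 0.667% of all genes, and in KOPT-K minus T-ALL1 KIF20A alone (0.43 ± 0.09, limma adjusted p = 0.0447), against 0.885%. The other 7 pairs gave 0 calls among the 40 genes in limma, with the lowest adjusted p at 0.115 (KIF20A, DND41 minus KOPT-K). Of all genes, the share called was 0.0798% in CEM minus HPB-ALL, 0.232% in CEM minus KOPT-K, 0.551% in DND41 minus HPB-ALL, 0.689% in DND41 minus KOPT-K, 2.39% in DND41 minus T-ALL1, 0.203% in HPB-ALL minus KOPT-K and 0.29% in HPB-ALL minus T-ALL1. At an unadjusted p under 0.05 there were 16 of the 40 genes in CEM minus HPB-ALL, all higher in CEM, against 7.11% of all genes at that threshold. There were 13 each in DND41 minus KOPT-K (8.83% of all genes) and HPB-ALL minus KOPT-K (8.09%), all higher in KOPT-K. There was 1 in CEM minus KOPT-K (9.7%) and in DND41 minus T-ALL1 (18.7%), and 0 in DND41 minus HPB-ALL (10.2%) and HPB-ALL minus T-ALL1 (11.3%). These calls lay near the threshold: the calls in CEM minus DND41 were each lost without any 1 of 17 of the 20 arrays (limma adjusted p up to 0.221), and that in KOPT-K minus T-ALL1 without any 1 of 16 (up to 0.154). The call in CEM minus T-ALL1 was lost without any 1 of 8 arrays, those being the NBD arrays of T-ALL1 and HPB-ALL and all 4 of CEM (up to 0.113).

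CCNB1 encodes cyclin B1, the partner of CDK1. Its log2 levels were 11.95 and 11.88 with control and 12.17 and 12.05 with NBD in CEM, 11.56 and 11.55 and then 11.35 and 11.19 in DND41, and 11.86 and 11.79 and then 11.63 and 11.61 in HPB-ALL. They were 11.44 and 11.35 and then 11.42 and 11.52 in KOPT-K, where the peptides overlapped, and 12.09 and 12.02 and then 11.97 and 11.92 in T-ALL1. NBD was thus the higher in CEM and the lower in DND41, HPB-ALL and T-ALL1 without overlap. The effects were 0.19 ± 0.07 in CEM, -0.29 ± 0.07 in DND41 (limma adjusted p = 0.0613), -0.21 in HPB-ALL, 0.07 in KOPT-K and -0.11 in T-ALL1. Another probe set of CCNB1 gave 0.14 in CEM and -0.20 in DND41. With the mean of both probe sets the difference between these lines was 0.41 (limma adjusted p = 0.122), and with quantile normalization 0.42 (0.0646).

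CDC25C encodes a phosphatase that activates CDK1 at mitotic entry. Its log2 levels in KOPT-K were 8.22 and 8.21 with control and 8.61 and 8.46 with NBD. They were 9.27 and 9.22 and then 9.38 and 9.38 in CEM, 9.16 and 9.17 and then 9.19 and 9.11 in DND41, 9.30 and 9.35 and then 9.30 and 9.24 in HPB-ALL, and 9.15 and 9.14 and then 9.20 and 9.17 in T-ALL1. With control peptide the level in KOPT-K was lower than in T-ALL1, the other line of its run. CDC25C rose in KOPT-K by 0.32 ± 0.06 (1.25-fold, limma adjusted p = 0.0272). Its effect was 0.14 in CEM, -0.02 in DND41, -0.05 in HPB-ALL and 0.04 in T-ALL1. The F-test for a difference between lines did not pass (limma adjusted p = 0.14), so the effect in KOPT-K is not shown to differ from the others. The call in KOPT-K was lost without KOPT-K control 1, control 2 or NBD 1, where the effect was 0.33, 0.32 and 0.25. It was also lost with quantile normalization (0.27, limma adjusted p = 0.0939), with its probe sets averaged (0.23, 0.331) and without a filter (0.0637). With probe sets averaged, the 1 gene of the 40 called in KOPT-K was PLK1. Its other probe set above the filter value gave 0.45 ± 0.20 in KOPT-K and 0.80 ± 0.20 in T-ALL1.

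PLK1, the Polo-like kinase that acts throughout mitosis, stood at log2 levels of 7.49 and 7.46 with control and 7.77 and 7.97 with NBD in KOPT-K. In CEM it stood at 8.38 and 8.38 and then 8.46 and 8.48, in HPB-ALL at 8.08 and 8.15 and then 7.92 and 7.98, in DND41 at 7.63 and 7.45 and then 7.53 and 7.39, and in T-ALL1 at 8.20 and 8.34 and then 8.34 and 8.18. The peptides were apart in KOPT-K, CEM and HPB-ALL and overlapped in DND41 and T-ALL1. Its effect in KOPT-K was 0.40 ± 0.09 (limma adjusted p = 0.0507), just outside the threshold, and 0.09, -0.16, -0.08 and -0.01 in the other lines in the order above. AURKA, the Aurora kinase of the spindle poles, had log2 levels of 10.70 and 10.59 with control and 10.87 and 10.96 with NBD in KOPT-K, an effect of 0.27 ± 0.07 (limma adjusted p = 0.117). Its effects elsewhere were 0.14 in CEM, -0.07 in DND41, -0.01 in HPB-ALL and -0.14 in T-ALL1. PLK1 and AURKA both passed in KOPT-K when either T-ALL1 control array was left out of the fit. The other kinase and passenger genes were AURKB, of the chromosomal passenger complex, at 0.13 in KOPT-K and -0.17 in HPB-ALL, and BIRC5 (survivin), at 0.15 and 0.04. BIRC5 was higher on both NBD arrays in 4 lines and lay outside the common pattern.

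**Figure D3:**
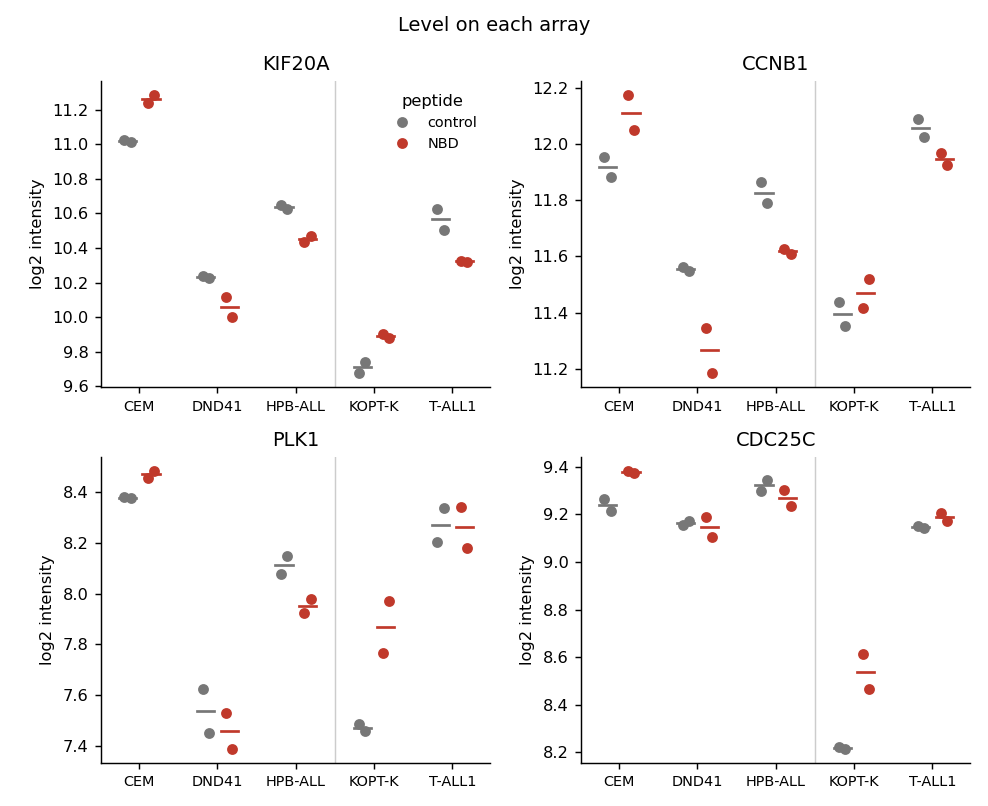
Level on each array (points, log2 intensity) of KIF20A, CCNB1, PLK1 and CDC25C in the 5 lines, with control peptide in grey and NBD in red; bars are the means of 2 arrays and the vertical line parts the 2 processing runs. KIF20A is higher with NBD in CEM and KOPT-K and lower in DND41, HPB-ALL and T-ALL1 with no overlap of the peptides.

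Among the other cyclin and CDK1 genes, CCNB2 (cyclin B2) resembled the common pattern, at 0.10 in CEM, 0.17 in KOPT-K, -0.07 in DND41 and -0.13 in HPB-ALL. CDK1 itself was 0.17 in CEM, 0.10 in KOPT-K, 0.12 in T-ALL1, -0.12 in DND41 and 0.02 in HPB-ALL. CCNA2 (cyclin A2), which acts in S phase and G2, was 0.11 in CEM, 0.12 in T-ALL1, -0.17 in DND41 and -0.05 in HPB-ALL. CDC25B, another phosphatase of CDK1, ran against the common pattern in KOPT-K, at -0.21, and was higher on both NBD arrays in DND41. In T-ALL1 it was -0.21 as well. None of these passed in any line.

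The spindle checkpoint genes were led by BUB1, a kinase of the kinetochore. Its log2 levels were 11.25 and 11.21 with control and 11.41 and 11.38 with NBD in CEM, and 11.34 and 11.25 and then 11.09 and 11.08 in HPB-ALL. In KOPT-K they were 10.87 and 10.82 and then 10.88 and 10.88, in DND41 11.25 and 11.20 and then 11.14 and 11.16, and in T-ALL1 they averaged 11.12 and then 10.99. The peptides did not overlap in any line, with NBD the higher in CEM and KOPT-K and the lower in the others, as for KIF20A. In KOPT-K they nearly met, with the higher control array at 10.871 and the lower NBD array at 10.875. The effects were 0.17 ± 0.06 in CEM, 0.03 in KOPT-K, -0.07 in DND41, -0.21 in HPB-ALL and -0.13 in T-ALL1 (F-test, limma adjusted p = 0.0968). MAD2L1, which inhibits the APC/C at unattached kinetochores, was 0.19 in CEM and -0.15 in DND41, TTK (the MPS1 kinase) 0.17 and 0.09, BUB1B (BUBR1) 0.03 and -0.13, and BUB3, which binds BUB1 and BUBR1, 0.04 and -0.09. In T-ALL1 all 5 checkpoint genes were below 0, at -0.13 to -0.03.

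Of the 5 centromere and kinetochore genes, NUF2 of the NDC80 complex had the highest effect of all 40 genes in CEM. Its log2 levels there were 11.12 and 11.10 with control and 11.39 and 11.33 with NBD, an effect of 0.25 ± 0.10 (limma adjusted p = 0.261). It was 0.17 in KOPT-K and -0.22 in T-ALL1, where the control arrays stood at 11.84 and 11.46 and the NBD arrays at 11.44 and 11.41. NDC80, its partner, was 0.09 in CEM, 0.17 in KOPT-K and -0.14 in DND41. CENPA, the histone H3 variant of centromeres, was lower on both NBD arrays in DND41 (9.71 and 9.67, then 9.51 and 9.48) and HPB-ALL (9.99 and 10.06, then 9.77 and 9.75), at -0.20 and -0.26. CENPE, a kinetochore motor, and CENPF lay between -0.08 and 0.08 in CEM, DND41 and HPB-ALL.

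The 5 kinesin motors had median effects of 0.20 in CEM, 0.15 in KOPT-K, -0.17 in DND41 and -0.11 in HPB-ALL, and all 5 were below 0 in DND41 and HPB-ALL. KIF23, which with KIF20A works at the central spindle, was 0.23 in CEM, 0.22 in KOPT-K and -0.17 in DND41. KIF2C, which takes apart microtubule ends at centromeres, was 0.20, 0.15 and -0.03, KIF11, which pushes spindle poles apart, 0.17, 0.05 and -0.06, and KIF4A, a chromosome-bound motor, 0.06, -0.04 and -0.20. Spindle assembly factors had medians of 0.14 in CEM, 0.07 in KOPT-K, -0.04 in DND41 and -0.13 in HPB-ALL. TPX2, which activates AURKA on the spindle, was 0.20 in CEM and -0.21 in HPB-ALL, where its arrays stood at 11.68 and 11.64 with control and 11.42 and 11.47 with NBD. DLGAP5, of the kinetochore fibres, was 0.18 and -0.17, NUSAP1, which bundles microtubules, 0.16 and -0.09, ASPM, of the spindle poles, 0.13 and -0.14, HMMR 0.10 and -0.07, and PRC1, which bundles the central spindle, 0.02 and -0.12. Of these only PRC1 had a higher effect in KOPT-K (0.18) than in CEM.

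Of the cytokinesis genes, ANLN (anillin), a scaffold of the cleavage furrow, was 0.20 in CEM, 0.17 in KOPT-K and -0.21 in DND41, and ECT2, which activates RhoA there, 0.17, 0.05 and -0.06. UBE2C, the ubiquitin-conjugating enzyme of the APC/C, was 0.22 ± 0.07 in CEM, with arrays at 12.97 and 12.93 with control and 13.16 and 13.19 with NBD (limma adjusted p = 0.192). CDC20, an activator of the APC/C, was 0.09 in CEM and 0.12 in KOPT-K, and PTTG1 (securin), its substrate, 0.15 and 0.04. ESPL1 (separase), which cuts cohesin, was 0.05 and 0.14. All 4 were below 0 in HPB-ALL, and in T-ALL1 by the chosen probe sets, which others often contradicted in that line. FOXM1, a transcription factor of G2 and mitosis genes, was 0.09 in CEM and 0.05 in KOPT-K and moved less across lines than all but 1 of the 40 genes, CENPF.

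TOP2A and MKI67 were above 0 in T-ALL1, where 28 of the 40 genes were below 0, or 20 with probe sets averaged. TOP2A, the topoisomerase that untangles chromosomes, stood there at 12.78 and 13.11 with control and 13.16 and 13.17 with NBD, and its effect was 0.22, against 0.16 in CEM, 0.19 in KOPT-K, 0.13 in DND41 and -0.03 in HPB-ALL. Its average over the lines was 0.13 ± 0.05 (limma adjusted p = 0.0952), and without T-ALL1 control 2 it passed. MKI67, which encodes the Ki-67 protein that coats mitotic chromosomes, had a wide replicate spread in both lines of its run, with control arrays at 7.58 and 8.64 in KOPT-K and 7.65 and 8.37 in T-ALL1. Without KOPT-K control 2 it passed in KOPT-K. Its effects of 0.63 ± 0.28 in KOPT-K and 0.29 ± 0.28 in T-ALL1 lay within that spread (limma adjusted p = 0.401 and 0.586).

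The probe sets of a gene differed most often in sign in T-ALL1. Of the 40 genes, 22 had several probe sets, with 37 others at or above the filter value on at least 2 arrays. These had a median effect of 0.09 in CEM, 0.14 in KOPT-K, -0.04 in DND41 and -0.03 in HPB-ALL, with the sign of the chosen probe set in 30, 27, 24 and 23 of the 37. In T-ALL1 their median was 0.19 and 20 of 37 shared the sign, beside the difference in the actin ratio between its peptides. With the mean of all probe sets of a gene the median over the 40 genes was 0.02 in T-ALL1, with 20 genes below 0, so no direction is given for that line.

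Levels with control peptide, before any effect of NBD, differed between lines for many of these genes. Within the run of CEM, DND41 and HPB-ALL, CEM had the highest level for 29 of the 40 genes and DND41 the lowest for 31. CEM exceeded DND41 for 26 genes and was lower for 0 (limma, against 22.2% and 19.8% of all genes), with a median difference of 0.37. KIF23 differed by 0.98 ± 0.10 (limma adjusted p = 1.28e-06), CDC20 by 0.96 ± 0.07 (5.11e-08), AURKA by 0.93 ± 0.07 (1.3e-07) and PLK1 by 0.84 ± 0.09 (3.37e-06). CEM exceeded HPB-ALL for 12 genes and was lower for 3, MAD2L1, KIF4A and PTTG1 (25.3% and 23.6% of all genes), with CDC20 the furthest apart, at 0.90 ± 0.07 (limma adjusted p = 8.7e-08). CDC20 stood at 12.32 and 12.33 in CEM controls, 11.38 and 11.35 in DND41 and 11.40 and 11.44 in HPB-ALL, and DND41 and HPB-ALL did not differ beyond their spread (-0.06 ± 0.07). DND41 exceeded HPB-ALL for 1 gene, BUB3, and was lower for 19 (23.8% and 23.7% of all genes), among them KIF23 by -0.95 ± 0.10, DLGAP5 by -0.78 ± 0.07 and CCNB2 by -0.67 ± 0.06. The BUB3 difference (0.22, limma adjusted p = 0.0428) lost its call without any 1 of 12 of the 20 arrays (up to 0.205), with probe sets averaged and without a filter. That total of 20 was 13 without HPB-ALL control 1, and the 15 of CEM and HPB-ALL were 10 without CEM control 2 or HPB-ALL control 1.

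In the other run KOPT-K lay below T-ALL1 for 28 of the 40 genes and above it for 4, against 30.6% and 23.6% of all genes, with a median difference of -0.54. AURKA stood at 10.70 and 10.59 in KOPT-K controls and 12.64 and 12.43 in T-ALL1, a difference of -1.89 ± 0.07 (limma adjusted p = 4.4e-11). NUF2 differed by -1.31 ± 0.10, HMMR by -1.19 ± 0.08 and PRC1 by -1.11 ± 0.07. The genes higher in KOPT-K were CDC25B (0.63 ± 0.12), UBE2C (0.36), BIRC5 (0.35) and BUB3 (0.25). The actin ratio differed between these control groups too, at 0.94 ± 0.28 in KOPT-K and 2.61 ± 0.78 in T-ALL1 (SD, n = 2), and its part in the levels was not tested. For BUB1 and ECT2 the sign of this difference turned with the mean of all probe sets (0.22 and 0.09, against -0.27 and -0.46).

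**Figure D4:**
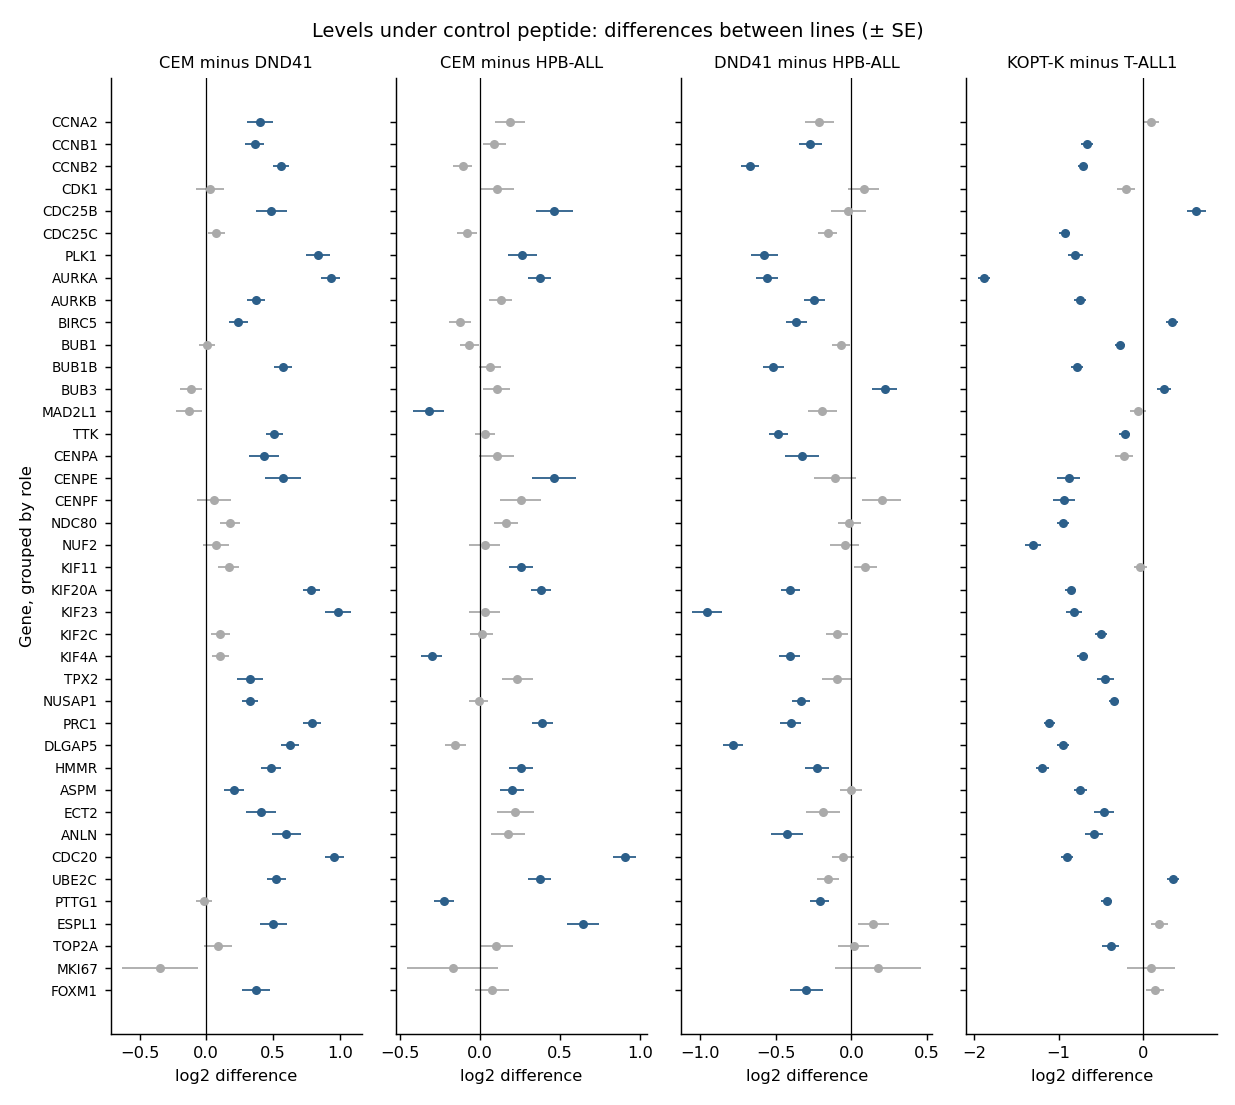
Difference in level with control peptide between lines of the same processing run (log2, ± SE) for the 40 genes, with those past a limma adjusted p of 0.05 in blue and the others in grey. Most genes lie to the right in CEM minus DND41 and to the left in KOPT-K minus T-ALL1, where AURKA is the furthest out at -1.89.

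Other genes of mitosis were read from a list of 127, of which 122 were tested. Their medians had the same signs as those of the 40 genes in 4 lines and were smaller, at 0.06 in CEM, 0.04 in KOPT-K and -0.06 in both DND41 and HPB-ALL, with 87, 78, 29 and 31 of the 122 above 0. In T-ALL1 63 were above 0. In limma 0 passed in CEM. At an unadjusted p under 0.05 there were 23 in CEM, 22 of them higher (13.4% of all genes). There were 26 in DND41, 25 of them lower (14.7%), and 14 in HPB-ALL, 13 of them lower (10.4%). KOPT-K had 13, 11 of them higher (11.8%), and T-ALL1 had 30, 15 higher and 15 lower (20.8%). With an adjusted p under 0.05, 1 rose in KOPT-K, 1 rose and 3 fell in DND41, 2 fell in HPB-ALL and 1 rose and 3 fell in T-ALL1, and 4 of 122 (3.28%) passed the F-test between lines. Of all genes, 1.13% were called in CEM, 1.28% in KOPT-K, 2.47% in DND41, 0.783% in HPB-ALL, 3.45% in T-ALL1 and 1.83% in the F-test. The T-ALL1 calls moved with single arrays: 11 rose and 16 fell without its control 2, 1 rose and 1 fell without control 1, 1 fell without NBD 2 and 0 passed without NBD 1. Passenger complex and cytokinesis genes had medians of 0.11 in CEM, 0.14 in KOPT-K and -0.15 in DND41, and all 8 tested were above 0 in KOPT-K. Subunits and regulators of the APC/C had medians between -0.05 and 0.01 in the 5 lines.

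Among the genes that passed the F-test, TROAP, a spindle protein, fell in T-ALL1 by 0.36 and in HPB-ALL by 0.33 and was 0.22 in CEM and -0.01 in KOPT-K (limma adjusted p = 0.0239 for the difference between lines). PSRC1, which binds spindle microtubules, fell in T-ALL1 by 0.47 and was 0.13 in KOPT-K (0.0377). MYBL2, the B-MYB subunit of the complex that binds CHR elements, fell in DND41 by 0.42 and was 0.23 in T-ALL1 (0.0377). The other was TUBB4B, a tubulin, named after its value was seen (0.0489). UBE2S, which extends ubiquitin chains for the APC/C, rose in KOPT-K by 0.34 (limma adjusted p = 0.035), and MAD1L1, the checkpoint partner of MAD2L1, fell in DND41 by 0.65 (0.0054) and in T-ALL1 by 0.43 (0.0392).

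Genes of DNA replication and S phase had other values than the mitosis genes. Of 43 tested, the median effect was -0.05 in CEM and DND41, -0.06 in KOPT-K and 0.04 in HPB-ALL. In each of these lines limma called 0. At an unadjusted p under 0.05 there were 7, 6, 5 and 5 in the same order of lines. The shares of all genes at that threshold were 13.4%, 14.7%, 11.8% and 10.4%. In T-ALL1 the median was 0.27, with 39 of the 43 above 0. There 17 rose (1.15% of all genes), among them ORC1 by 1.04 and CDT1 by 0.80, which load the replicative helicase, while 0 of the 40 mitosis genes passed. The 17 were 10 without T-ALL1 control 1, 21 without control 2, 2 without NBD 1 and 4 without NBD 2, with a median of 0.22 to 0.28. Control levels parted as well: KOPT-K exceeded T-ALL1 for 36 of the 43 replication genes and was lower for 3, with a median of 1.03, against -0.54 for the mitosis genes. The T-ALL1 control arrays, with their high actin difference, enter both of these comparisons.

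**Figure D5:**
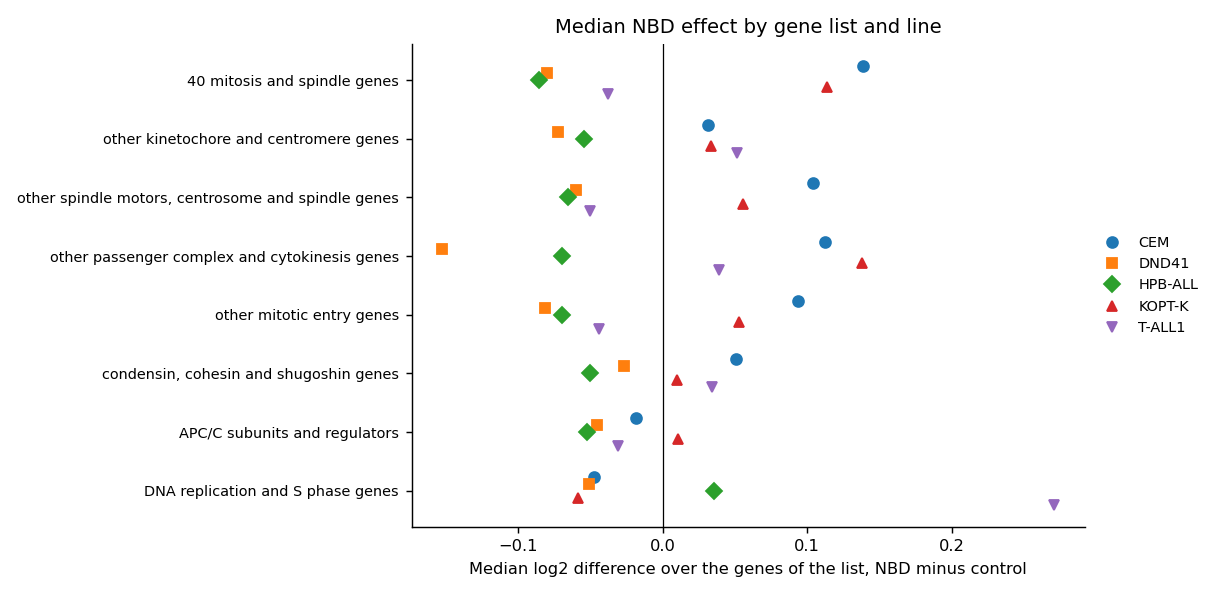
Median NBD effect (log2 difference, NBD minus control, horizontal axis) of the 40 mitosis and spindle genes, of 6 lists of other mitosis genes and of DNA replication genes, with a symbol for each line. In the top row CEM and KOPT-K lie at 0.14 and 0.11, and the replication genes of T-ALL1 lie apart at 0.27.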

How the data were processed

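Per the labels, 20 ng of total RNA per sample was amplified in 2 cycles, labelled with biotin and hybridized to Affymetrix U133 Plus 2.0 arrays. The authors deposited 1 linear intensity for each of 54675 probe sets and 20 arrays, made with RMA per the submitters' processing notes (version and settings not given in the sources used here), and no scanner files were used here. The deposited intensities were taken to log2 with no pseudocount. Array columns of T-ALL1 and KOPT-K hold 7 decimals and the others 2, from which 2 processing runs were inferred.

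The platform's probe table gave 1 symbol for 41097 probe sets, several for 1801 and none for 11777, and 41043 symbols matched RefSeq. For each gene, the brightest probe set on average stood for it, and genes needed at least 2 arrays at or above intensity 31.96 (log2 5.0), the median of all values. limma 3.58.1 in R 4.3.3 was fitted with 10 group means (10 residual and 3.42 prior degrees of freedom), with Benjamini-Hochberg adjustment at 0.05 over 13787 genes per comparison. Effects are NBD minus control per line, their average, 10 differences between lines, a moderated F-test, and control levels of 4 pairs of lines within runs. Alternatives were quantile normalization, the mean of all probe sets, no filter, a trended and robust prior, the replicate number as a block, each array left out, runs alone, T-ALL1 left out and lines as replicates. On simulated data (13787 genes, change in CEM only) the F-test recovered 19% of genes changed by 0.5 and 73% by 1.

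The 40 genes and all lists were chosen with earlier results of these data known. All 40 could be named, and of each list of other mitosis genes the 2 with the lowest p in the F-test; other names were taken because they passed. CENPW, WAPL, SMC2, ANAPC2, CDCA8, DEPDC1 and BORA, also named by that rule, did not pass the F-test.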

Additional observations from a re-analysis of the deposited data

Results flagged for a closer look

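Several results met the test for an effect that differs between lines. KIF20A differed between the 5 lines (limma moderated F-test, adjusted p = 0.0201), and its effect was higher in CEM than in DND41 by 0.42, in CEM than in T-ALL1 by 0.49 and in KOPT-K than in T-ALL1 by 0.43. CCNB1 was higher in CEM than in DND41 by 0.48. Of the other mitosis genes, TROAP (limma moderated F-test, adjusted p = 0.0239), PSRC1 (0.0377) and MYBL2 (0.0377) differed between the lines. No group had enough arrays to look for an outlying one.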

How the results depend on the processing

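Counts of the 40 genes called in limma were small and moved with the settings. For KOPT-K the count of 1 became 0 with quantile normalization, without a filter and with the replicate block, and 3 with a trended and robust prior. That prior gave 2 calls in CEM, 1 each in DND41, HPB-ALL, T-ALL1 and the average, 8 in the F-test, 4 each in CEM minus DND41 and CEM minus T-ALL1, 2 each in CEM minus HPB-ALL, DND41 minus KOPT-K and KOPT-K minus T-ALL1, and 1 in HPB-ALL minus KOPT-K. Quantile normalization gave 1 in T-ALL1 and 1 in CEM minus DND41. The mean of all probe sets gave 2 in T-ALL1, 3 on average, 1 in CEM minus DND41 and 1 in DND41 minus T-ALL1. Without a filter CEM minus DND41, CEM minus T-ALL1 and KOPT-K minus T-ALL1 gave 0, where more genes were tested. The F-test gave 0 in T-ALL1 and KOPT-K alone, with fewer arrays. With lines as replicates 0 of the 40 genes passed.

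Same-numbered control and NBD arrays did not deviate together (r = -0.28 to 0.14 by line), so the numbers do not pair them. With the replicate block the counts were 0 in KOPT-K (CDC25C, limma adjusted p = 0.203), the F-test (KIF20A, limma adjusted p = 0.213), CEM minus DND41, CEM minus T-ALL1 and KOPT-K minus T-ALL1, and the level of BUB3 in DND41 minus HPB-ALL lost its call (limma adjusted p = 0.0903).

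With single arrays left out (the lone array of a group was assumed to vary like the others) the counts ranged over 0 to 2 in CEM, 0 to 1 in DND41, 0 to 3 in KOPT-K, 0 to 5 in T-ALL1, 0 to 1 on average and 0 to 8 in the F-test. By pairs they were 0 to 2 in CEM minus DND41, 0 to 7 in CEM minus T-ALL1, 0 to 1 in DND41 minus KOPT-K, 0 to 2 in DND41 minus T-ALL1 and in HPB-ALL minus T-ALL1 and 0 to 4 in KOPT-K minus T-ALL1. The 8 of the F-test came without T-ALL1 control 2. Control levels gave 21 to 27, 10 to 16, 13 to 21 and 31 to 33 calls in CEM minus DND41, CEM minus HPB-ALL, DND41 minus HPB-ALL and KOPT-K minus T-ALL1. With the mean of all probe sets BUB1 and ECT2 reversed in KOPT-K minus T-ALL1, to 0.216 and 0.092. The cause of these changes was not tested, apart from the numbers of genes and arrays named.

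The median effect of the 40 genes ranged over 0.11 to 0.15 in CEM, 0.10 to 0.13 in KOPT-K, -0.10 to -0.05 in DND41, -0.10 to -0.07 in HPB-ALL and -0.05 to 0.02 in T-ALL1, so it kept its sign under the settings tried in every line but T-ALL1. The average over lines was -0.01 with the run of CEM alone and 0.05 with the run of T-ALL1 alone. The counts of genes above or below 0 in single settings, and those of the replication genes without single arrays, were added after seeing the data.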
